A study of Mus musculus with 18 samples.

Results

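The comparison covers mouse back skin on day 2 after surgery, with a tissue expander under the skin or without one. In the expanded mice a hydrogel expander was passed from a cut near the tail along a path under the skin to the neck, where stitches held it. The control mice had the same cut and the same path made under the skin, and the wound was closed with nothing left inside, so both arms carry a surgical wound and only the expanded arm carries an implant and stretched skin. No group carried an implant that did not expand, so stretch and the implant itself cannot be told apart. The members were every cell of the libraries labelled day 2, which are 1 control and 1 expanded library in each of 2 sequencing rounds. After quality filters they held 12888 of the 45518 cells of the series, with 2131 and 5605 cells in the control libraries of rounds 1 and 2 and 3304 and 1848 cells in the expanded libraries. Within a round the skin of all mice of an arm was digested and pooled, and live cells were sorted by exclusion of the dye DAPI. Antibody hashtags marked 3 mice an arm in round 1 and 4 an arm in round 2, so that 7 control and 7 expanded mice could be compared. The strain, sex and age of the mice are not given in the sources used here.

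Skin answers a wound in an order that is well known. Neutrophils arrive first, drawn by CXC chemokines, and Ly6c-positive monocytes follow and turn into macrophages that take the place of, or join, the long-lived resident macrophages of the dermis. Dendritic cells carry antigen out of the skin to lymph nodes, fibroblasts switch from keeping up collagen to making provisional matrix such as tenascin C, and vessels change the adhesion molecules by which blood cells leave. Tissue expansion is used in surgery to grow extra skin, and stretch is sensed by many of the same cells.

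Single-cell libraries count unique molecular identifiers (UMIs), which stand for captured mRNA molecules. The genes of the 4 libraries summed to between 17726739 and 51718536 UMIs, and the median cell held between 6872 and 11171.5 UMIs. Named classes took in 10398 cells, and 2490 cells lay in clusters that were left unnamed because their markers did not meet the naming rule. The markers that named each class were mostly highest in it, for example 15 of 16 for macrophages, 13 of 14 for neutrophils, 11 of 12 for fibroblasts and 10 of 10 for mast cells, but only 7 of 14 for the class of NK and innate lymphoid cells. A hashtag tied 8462 cells to 1 mouse, and this share was 98.9% and 98.8% of the immune cells of the control and expanded arms against 42.9% and 36.3% of the other cells. Shares per mouse are therefore given within immune and within non-immune cells. Cells of an arm and round shared 1 tube and 1 reaction, so arm and reaction cannot be told apart within a round, and only a difference seen in both rounds was seen in separate reactions. Doublets called from the expression profile alone were few, at 0.0589% to 1.33% of a library, and doublets of all kinds removed, those with 2 hashtags included, came to between 2.47% and 4.10%.

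Among immune cells of expanded skin the share of neutrophils was far larger. The shares of the named classes of dendritic cells, NK or innate lymphoid cells and mast cells were smaller. Neutrophils made up 1.82% ± 1.73 of immune cells in controls but 20.8% ± 9.16 after expansion (SD, n = 7 and 7). The lowest, median and highest control mice had 0.310%, 1.04% and 4.54%, and the expanded mice had 7.79%, 24.8% and 30.5%. No expanded mouse fell within the range of the controls, and the differences in rounds 1 and 2 were +22.8 and +16.2 percentage points (exact two-sided permutation test of mice within rounds, p = 0.00143, adjusted p = 0.00514 by Benjamini-Hochberg over 18 classes). This raw p is the smallest that the 1400 arrangements of the mice allow. The libraries as a whole, unassigned cells included, had 1.24% and 2.29% in the control and 23.9% and 22.3% in the expanded libraries.

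Dendritic cells, which present antigen and leave the skin through lymphatic vessels, went the other way. They were 20.9% ± 6.16 of immune cells in control mice and 3.58% ± 1.96 in expanded mice (SD, n = 7 and 7). Control mice had 13.6%, 23.1% and 29.6% as lowest, median and highest values and expanded mice 2.05%, 3.23% and 7.82%, again without overlap. The differences in rounds 1 and 2 were −23.3 and −12.8 percentage points (exact permutation test, p = 0.00143, adjusted p = 0.00514). The class leaves out an unnamed cluster led by Ccl22 and H2-M2, which had markers of both dendritic and Langerhans cells among its leading genes. That cluster went the other way, with 1.74% ± 1.41 of immune cells in control and 3.82% ± 3.25 in expanded mice, and was not tested. Mast cells, the granule-filled cells of the dermis, were 4.40% ± 2.97 of immune cells in control and 1.26% ± 1.46 in expanded mice, with overlapping ranges and differences of −4.86 and −1.85 percentage points (exact permutation test, p = 0.00143, adjusted p = 0.00514). NK or innate lymphoid cells were 5.95% ± 3.06 against 2.30% ± 0.613, also with overlap (−3.19 and −3.99 percentage points; exact permutation test, p = 0.00286, adjusted p = 0.00857).

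Shares are parts of a whole, so a class that gains cells lowers the others, and absolute cell numbers per area of skin were not measured. In round 1 the control and expanded libraries held 54 and 54 mast cells and 36 and 39 NK or innate lymphoid cells. In round 2 they held 41 and 4 mast cells and 110 and 20 NK or innate lymphoid cells. Macrophages and monocytes, the largest immune class, were 42.03% ± 8.10 in control and 48.5% ± 10.3 in expanded mice, a difference that did not pass (+17.0 and −1.41 percentage points; exact permutation test, p = 0.217, adjusted p = 0.279) and had opposite signs in the rounds. T cells were 8.29%, 13.9% and 30.3% (lowest, median and highest) in control mice and 1.61%, 8.25% and 34.8% in expanded mice. This difference did not pass either (exact permutation test, p = 0.769, adjusted p = 0.814). Its sign was opposite in rounds 1 and 2, at −5.61 and +2.15 percentage points. Some unnamed immune clusters were described without a test: a cluster led by Mcpt8, a protease of basophils, with Hgf held 3 and 5 control cells and 25 and 21 expanded cells, and a cluster led by Ccl22 and H2-M2 held 4 and 47 control and 59 and 27 expanded cells.

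**Figure D1:**
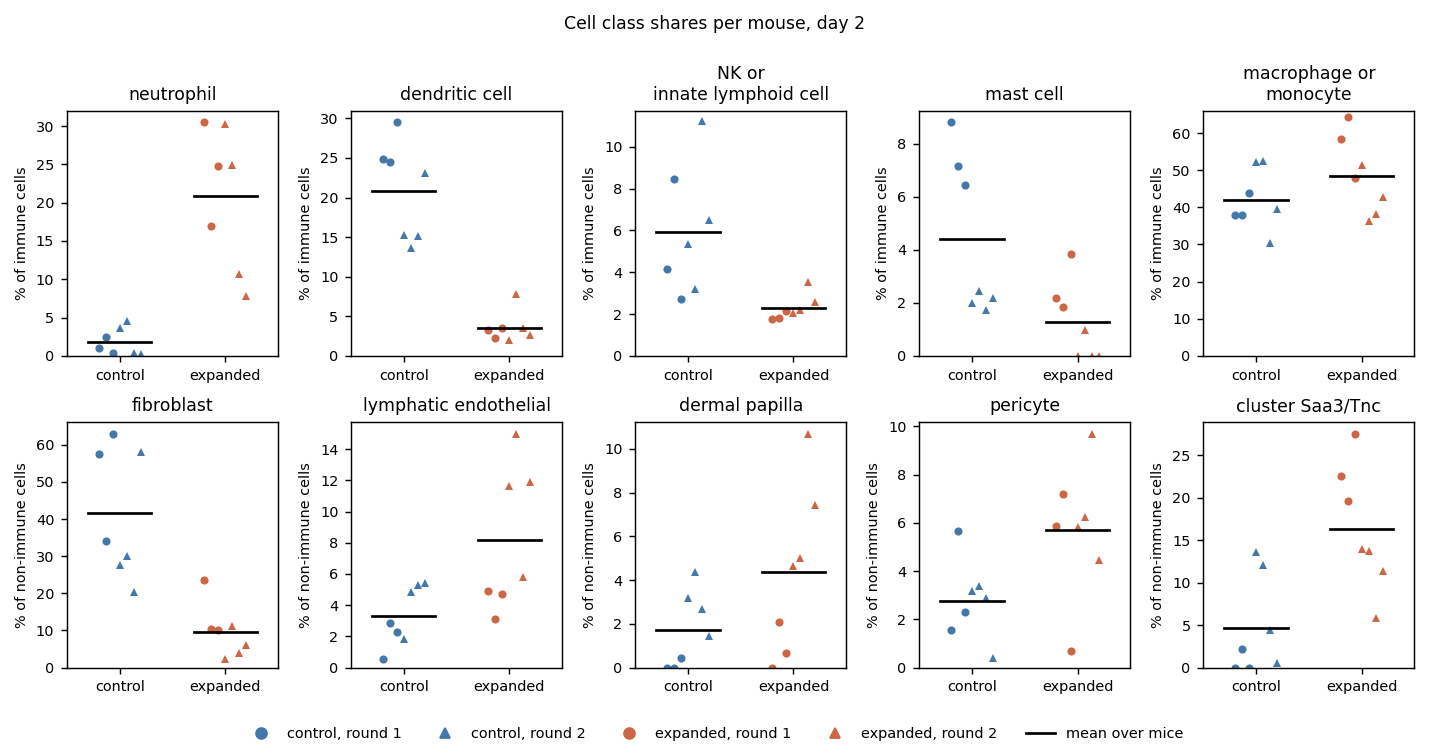
Share of immune cells (neutrophils, dendritic cells, NK or innate lymphoid cells, mast cells, macrophages or monocytes) or of non-immune cells (the other panels) in each hashed mouse, in percent, for control and expanded skin on day 2; circles are mice of round 1, triangles mice of round 2, and the line is the mean. Neutrophils and dendritic cells separate the arms completely, while the other panels overlap.

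Among the other cells the named fibroblast class fell and lymphatic endothelial and dermal papilla cells rose as shares. Fibroblasts made up 41.5% ± 17.4 of non-immune cells in controls but 9.62% ± 7.03 after expansion (SD, n = 7 and 7). Control mice had 20.4%, 34.0% and 63.0% as lowest, median and highest values and expanded mice 2.33%, 10.1% and 23.5%, and only the highest expanded mouse reached the control range. The differences were −36.9 and −28.2 percentage points (exact permutation test, p = 0.00143, adjusted p = 0.00514). A cluster led by Saa3, an acute phase protein gene, and Tnc, tenascin C, carried fibroblast markers but was left out of the named class. It held 4.69% ± 5.82 of non-immune cells in control and 16.4% ± 7.32 in expanded mice, with differences of +22.5 and +3.55 percentage points in rounds 1 and 2. Since its leading genes are themselves among those that differ between the arms, its size is a description with no test. Joining the named class with other clusters that had fibroblast markers was a choice made after seeing the data. Joined, they came to 61.2% ± 13.9 in controls and 38.4% ± 16.3 after expansion (SD, n = 7 and 7, exact permutation test, p = 0.00429, adjusted p = 0.0129). A cluster led by Hbb-bs and Cpz also matched the fibroblast markers best but was left out of the join. It held 6.34% and 4.75% of non-immune cells in the control and 3.33% and 7.73% in the expanded libraries of rounds 1 and 2.

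Lymphatic endothelial cells line the vessels that drain the skin. They were 3.29% ± 1.92 of non-immune cells in controls and 8.15% ± 4.59 after expansion, with overlapping ranges and differences of +2.35 and +6.73 percentage points (exact permutation test, p = 0.00143, adjusted p = 0.00514). Dermal papilla cells, the mesenchyme at the base of the hair follicle, were 1.73% ± 1.71 against 4.36% ± 3.82 (+0.759 and +4.03 percentage points; exact permutation test, p = 0.00714, adjusted p = 0.0184). A hashtag tied only 8.23% of the control and 16.2% of the expanded cells of this class to a mouse, which left 40 and 37 cells. The part of this unequal labelling in the rise was not tested. With unassigned cells included, the library shares of non-immune cells differed by +4.83 and +2.31 percentage points in rounds 1 and 2. Leaving out 1 mouse or 1 round at a time ended the call in 5 of 16 cases for lymphatic endothelial cells and in 9 of 16 for dermal papilla cells, against the 2 single-round cases, which are too small to pass, for each of the other 5 classes that passed. Pericytes were 2.77% ± 1.65 against 5.71% ± 2.76 and did not pass after adjustment (exact permutation test, p = 0.0400, adjusted p = 0.0900). Blood endothelial cells and basal keratinocytes did not pass either, with exact permutation p = 0.391 and p = 0.177. The adjusted threshold was met by 7 of 18 classes, and an unadjusted p under 0.05 by 8.

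In macrophages and monocytes of expanded skin, genes of blood monocytes were higher and genes of resident macrophages lower. Counts were summed per mouse, scaled to the summed UMIs of the class (counts per 1000000 UMIs, CPM), and tested with edgeR's quasi-likelihood test with the round as a block, over 7 control and 7 expanded mice. At an adjusted p under 0.05, 2183 of 7828 genes were called, or 27.9% of those tested, with 13.8% higher and 14.1% lower in expanded skin. On a list of inflammatory monocyte genes 13 of 14 tested rose and 0 fell, with a median log2 fold change of 1.95 beside 0.01 for all genes tested. This list and that of resident macrophage genes were chosen with earlier results of these data known. Chil3, Ly6c2, Fcgr1, Arg1 and Plac8 of the monocyte list also lead cluster 7, which held most expanded cells of the class. The counts of both lists are therefore a description and not independent support.

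Ly6c2, the surface marker of blood monocytes that have just entered tissue, had 0, 37.8 and 134 CPM in control and 94.1, 345 and 1309 CPM in expanded mice (lowest, median and highest; log2 fold change 3.90 ± 0.62, adjusted p = 0.000364). The median expanded mouse lay above every control, but the lowest 2 expanded mice fell within the control range. Ccr2, the receptor that brings monocytes out of blood, had 45.2, 331 and 537 CPM in control and 531, 645 and 986 CPM in expanded mice (log2 fold change 1.39 ± 0.28, adjusted p = 0.00176), again with overlap. Fcgr1, the high-affinity receptor for IgG, had 64.0, 129.9 and 265 CPM in control and 299, 409.7 and 660.0 CPM in expanded mice without overlap (log2 fold change 1.83 ± 0.23, adjusted p = 8.38e-05). Other risers of the list were Chil3, a chitinase-like protein (3.07 ± 0.61), Hp, haptoglobin (3.36 ± 0.48), Vcan, a large matrix proteoglycan made by monocytes (2.59 ± 0.47), Plac8 (2.66 ± 0.50) and Thbs1, thrombospondin 1 (1.44 ± 0.41; log2 fold change ± SE).

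Resident macrophage genes went the other way, with 12 of 16 lower, 0 higher and a median log2 fold change of −2.16. C1qa, a subunit of the complement starter C1q, had 423, 1165 and 3075 CPM in control and 14.3, 60.9 and 235 CPM in expanded mice (log2 fold change −4.11 ± 0.59, adjusted p = 0.000208), with no overlap between the arms. C1qb and C1qc, the partner subunits, fell with it (−4.23 ± 0.54 and −3.90 ± 0.57). Lyve1, a hyaluronan receptor of perivascular macrophages (−3.47 ± 0.63), Folr2, a folate receptor (−1.97 ± 0.36), and Selenop, a selenium transport protein (−2.42 ± 0.43), also fell. The lectin gene Cd209f had a log2 fold change of −5.90 ± 1.21, and its size differed between rounds, with −9.11 in round 1 and −3.46 in round 2 on the log2(CPM + 1) scale.

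Genes of alternative activation did not move as 1 group. Retnla, a secreted protein induced by interleukin 4, had 15.9, 105 and 1089 CPM in control and 0, 0 and 3.99 CPM in expanded mice (log2 fold change −8.20 ± 0.86, adjusted p = 2.08e-05), so the lowest control mouse was above the highest expanded mouse. Clec10a and Mgl2, lectins of the same state, also fell (−2.74 ± 0.45 and −3.04 ± 0.63), while Chil3 rose as given above. In all 1 of 8 rose and 3 fell. Of the MHC class II presentation genes 6 of 10 fell and 0 rose. H2-Ab1, a chain of the class II molecule, had 3224, 3949.8 and 5274 CPM in control and 599, 1255 and 1910.3 CPM in expanded mice without overlap (log2 fold change −1.91 ± 0.21, adjusted p = 2.45e-05), and Cd74, its chaperone, had a log2 fold change of −2.07 ± 0.22.

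Several other programmes differed in the same cells. Of 18 glycolysis and hypoxia genes 12 rose and 0 fell, among them Eno1, enolase, with 37.7, 108 and 138 CPM in control and 204, 326 and 419.7 CPM in expanded mice (log2 fold change 1.80 ± 0.13, adjusted p = 9.23e-07) and no overlap, and Pkm, pyruvate kinase (1.51 ± 0.15). Of 12 type I interferon response genes 9 rose and 0 fell, among them Isg15, a ubiquitin-like modifier, with 43.0, 109.6 and 158 CPM in control and 92.9, 382 and 691 CPM in expanded mice and overlapping ranges (log2 fold change 1.90 ± 0.41, adjusted p = 0.00290), and Irf7, the factor that amplifies the response (2.47 ± 0.55). Of 11 cholesterol biosynthesis genes 5 rose and 0 fell, led by Sqle, squalene epoxidase (1.68 ± 0.47), and Fdps, which makes farnesyl pyrophosphate (1.67 ± 0.32). Spp1, osteopontin, a secreted protein of wound macrophages, had 11.3, 105 and 193 CPM in control and 165, 631 and 1553 CPM in expanded mice with overlap (log2 fold change 2.95 ± 0.47, adjusted p = 0.000365).

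Genes that cells switch on within minutes of a stimulus, tissue digestion included, were lower in expanded skin. Of 17 immediate early genes 9 fell and 0 rose, and Jund, a subunit of the factor AP-1, had 1131, 1294 and 2692 CPM in control and 649, 798 and 853 CPM in expanded mice without overlap (log2 fold change −1.03 ± 0.14, adjusted p = 9.96e-05). Of 11 heat shock chaperones 7 fell and 0 rose, led by Hspa1b (−2.49 ± 0.30) and Hspa1a (−2.45 ± 0.27).

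The expanded and control macrophages drew on the clusters of the class in different shares, and their depths differed. Cluster 7, led by Chil3, Ly6c2 and Fcgr1, held 7.81% of the control and 63.5% of the expanded cells of the class. Cluster 8, led by Ccl8, Cd209f and Folr2, held 29.2% and 0.594%, and cluster 22, led by C1qb, C1qc and C1qa, held 18.7% and 0.660%. Cluster 23, with Pf4, Mrc1 and Cd163 of the resident list among its leading genes, held 12.1% and 25.7%. Cluster 15, with Chil3, Ms4a4c and F10 of the monocyte list among its leading genes, held 32.2% and 9.63%. A change within cells and a change in which cells were present cannot be told apart. The median cell had 5285 and 7546 UMIs in the control and 13573 and 14876 in the expanded libraries. The highest folds of the class included S100a8, with 0, 5.98 and 12.0 CPM in control and 292, 894 and 2089 CPM in expanded mice (7.15 ± 0.51). S100a9, its partner in calprotectin, had 0, 0 and 1.88 CPM in control and 51.2, 144 and 988 CPM in expanded mice, and both genes were highest in neutrophils. The summed level of 6 neutrophil transcripts in the class was 40.1 CPM in control and 1292 CPM in expanded mice, and that of fibroblast transcripts 1664 and 382 CPM; the part of free RNA in these genes was not tested. When every cell was thinned to 1 depth, 877 genes were called in place of 2183, and without round 1 the count was 740.

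**Figure D2:**
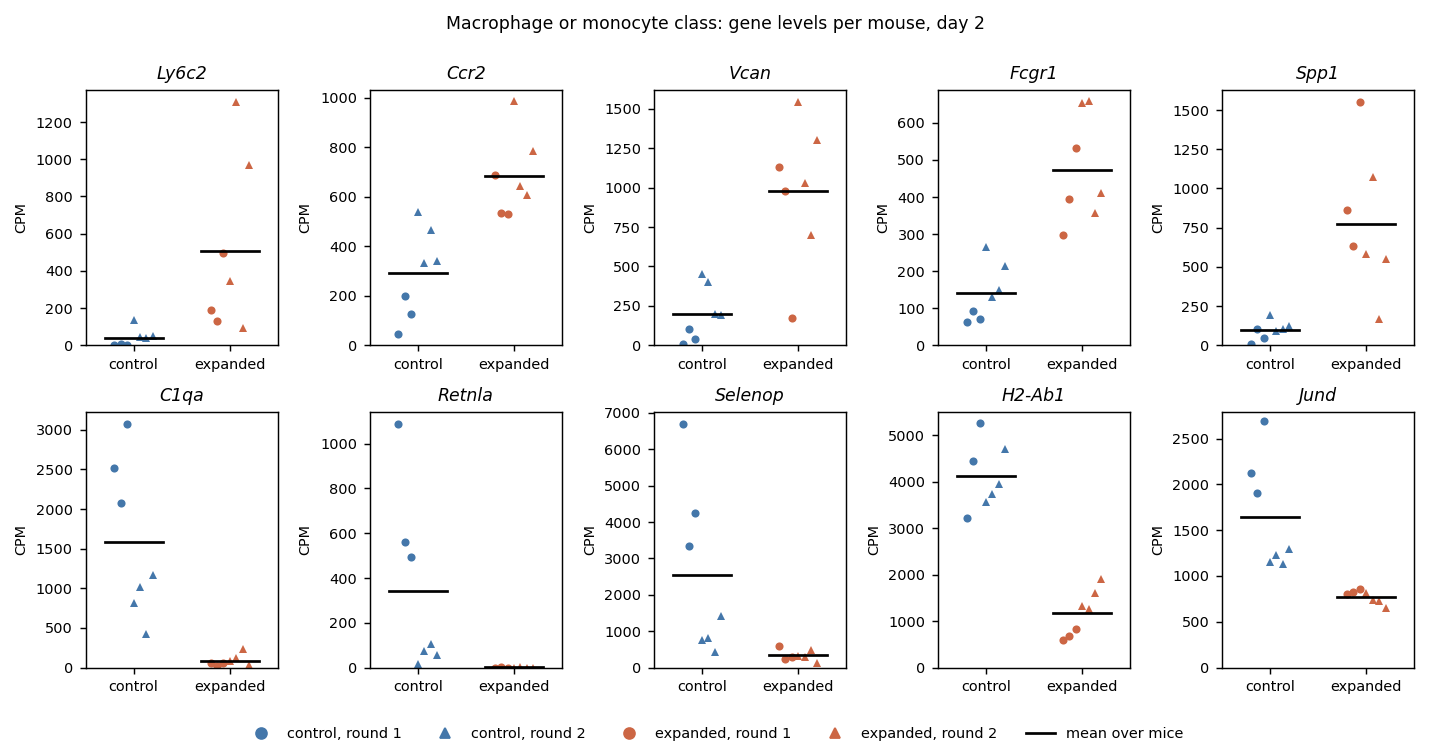
Level of 10 genes in macrophages or monocytes of each hashed mouse, in CPM of the summed class on a linear axis, for control and expanded skin; circles are mice of round 1, triangles mice of round 2, and the line is the mean. Monocyte genes such as Fcgr1 are higher and resident genes such as C1qa and Retnla lower in the expanded mice, and the ranges of Ly6c2, Ccr2, Vcan, Spp1 and Selenop overlap.

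Neutrophils could be described but not tested, since the control libraries held 9 and 43 of them against 495 and 184 in the expanded libraries. In the 5 expanded mice with at least 20 such cells, S100a9 reached 51868, 80383 and 89751 CPM (lowest, median and highest) and S100a8 22795, 41778 and 51854 CPM. Cxcl2, the chemokine by which neutrophils draw in more of their kind, had 43779, 72404 and 78699 CPM, and Il1b, interleukin 1 beta, 16416, 17628 and 24929 CPM. Chemokines of the CC family spanned the scale, from 7383, 13704 and 24903 CPM for Ccl4 and 3217, 4322 and 10808 CPM for Ccl3 down to 14.9, 27.9 and 34.9 CPM for Ccl2. Granule genes, which neutrophils express mainly in the bone marrow before release, ranged widely. Camp had 0, 6.21 and 21.8 CPM and Ltf 7.46, 9.20 and 26.5 CPM, while Mmp8 had 52.8, 159 and 242 CPM and Lcn2 717, 837 and 1198 CPM. Siglecf, a lectin known from eosinophils and aged neutrophils, had 0, 7.46 and 18.4 CPM.

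The named class of dendritic cells fell in share and also differed in its genes. The class had too few cells per mouse in expanded skin, so the 4 libraries were compared with the round as a block, which leaves 1 residual degree of freedom. Of 8054 genes 338 were called, or 4.2%, with 1.59% higher and 2.61% lower. Without the block the count was 2 and at equal depth 143. Cluster 3, led by Lyz1, held 156 of 193 and 245 of 324 control cells of the class and 36 of 63 and 29 of 43 expanded cells, and cluster 38, led by Cd207 and Xcr1, held 33 and 45 control and 26 and 10 expanded cells, so the makeup of the class differed between the arms. The values below give round 1 and then round 2 of each arm.

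Il12b, a subunit of the cytokines IL-12 and IL-23, had 0.615 and 0.906 CPM in the control and 20.6 and 51.4 CPM in the expanded libraries (log2 fold change 5.57 ± 0.54, adjusted p = 2.40e-06). Ifitm1, a membrane protein induced by interferon, had 32.6 and 22.4 CPM in the control and 818 and 1591 CPM in the expanded libraries (log2 fold change 5.43 ± 0.36, adjusted p = 1.12e-08). Both were higher in each expanded library than in either control. Lyz1, a lysozyme of macrophages and monocyte-derived cells, had 961 and 493.1 CPM in the control and 15.4 and 41.9 CPM in the expanded libraries (log2 fold change −4.68 ± 0.43, adjusted p = 1.62e-06). Retnla had 576 and 32.6 CPM in the control libraries and 0 in both expanded libraries, which is at least 133-fold lower when 3 counts over the arm are taken as the floor. Of 12 inflammatory monocyte genes 7 rose, among them Plac8 (2.91 ± 0.35), Ly6c2 (3.16 ± 0.64) and Fcgr1 (2.28 ± 0.37), and 1 fell, Fn1 (−3.33 ± 0.53), with a median of 1.30. Of 10 MHC class II genes 2 fell and 0 rose, Cd74 (−0.82 ± 0.14) and H2-Ab1 (−0.56 ± 0.16). Of 9 genes of maturation and migration 1 rose, Il4i1, an amino acid oxidase (2.94 ± 0.38). The unnamed cluster led by Ccl22 and H2-M2 had Ccr7, Il12b, Il4i1 and Ccl17 among its leading genes and lies outside this class. It held 4 and 47 control and 59 and 27 expanded cells, so neither this count nor the Il12b values cover it.

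Lymphocytes showed few changes that passed. In T cells, tested over 6 control and 4 expanded mice with at least 20 cells, 5 of 4456 genes were called, or 0.112%, all lower in expanded skin, and 638 had an unadjusted p under 0.05. Hmgb2, a chromatin protein high in dividing cells, had 472, 822 and 1271 CPM in control and 261, 405 and 439 CPM in expanded mice (log2 fold change −1.21 ± 0.21, adjusted p = 0.0398), without overlap. Lgals1, galectin 1, had 1998, 2212 and 2653 CPM in control and 826, 1051 and 1687 CPM in expanded mice (log2 fold change −1.04 ± 0.18, adjusted p = 0.0398), also without overlap. A cluster of the class led by Gzmc, with the dividing-cell genes Top2a and Mki67 among its leading genes, held 5 and 17 control and 2 and 2 expanded cells, and a cluster led by Trdc held 28 of 81 and 166 of 317 control and 71 of 111 and 106 of 156 expanded cells; the part of this makeup in the calls was not tested. The other 3 were Col1a1, Col1a2 and Timp2, which are fibroblast genes; the summed fibroblast transcripts of the class were 1591 CPM in control and 221 CPM in expanded mice, and their part in these calls was not tested. Leaving out 1 mouse or round ended the call for Hmgb2 in 9 of 12 cases and for Lgals1 in 8 of 12, and DESeq2 called 54 genes.

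Among NK or innate lymphoid cells 6 of 3631 genes were called, or 0.165%, with 0.0275% higher and 0.138% lower. Cxcr4, the receptor for Cxcl12, had 69.0 and 106 CPM in the control and 321 and 533 CPM in the expanded libraries (log2 fold change 2.28 ± 0.26, adjusted p = 0.0171). Areg, amphiregulin, an EGF receptor ligand, had 938 and 578 CPM in the control and 204 and 223 CPM in the expanded libraries (log2 fold change −1.82 ± 0.27, adjusted p = 0.0442). Both genes separated the libraries of the arms. The other 4 calls, which did not meet the rule for naming a gene and are named after their values were seen, were Col1a1, Col1a2, Col3a1 and Sparc, all lower. The summed fibroblast transcripts of the class were 1603 CPM in control and 115 CPM in expanded libraries, and their part in these calls was not tested. With another scaling of the libraries (relative log expression) 0 genes of the class were called.

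A cluster led by the cytokine genes Il17a and Il17f was not named because markers of another class stood among its leading genes. It took 7.42% ± 2.90 of immune cells in controls and 3.66% ± 2.19 after expansion, a description with no test. Of 3872 genes 19 were called, or 0.491%. Il22, the cytokine that acts on keratinocytes, had 4.87 and 35.8 CPM in the control and 217 and 1558 CPM in the expanded libraries (log2 fold change 5.42 ± 0.32, adjusted p = 6.30e-09). Il17f, which helped define the cluster, had 243 and 85.9 CPM in the control and 523 and 5329 CPM in the expanded libraries (log2 fold change 3.69 ± 0.71, adjusted p = 0.0195). For both genes the expanded library of round 2 was the highest, at a level well above that of round 1. Without the round block 1 gene was called, and at equal depth 1.

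Fibroblasts were tested in a first pass over the joined clusters with fibroblast markers, again without the cluster led by Hbb-bs and Cpz. This pass allowed 7 control and 6 expanded mice. A second pass covered the named class by library. The joined clusters were chosen after seeing the data, and their makeup differed. The cluster led by Saa3 and Tnc went from 4.69% ± 5.82 to 16.4% ± 7.32 of non-immune cells. The named class went from 41.5% ± 17.4 to 9.62% ± 7.03. Saa3, Tnc, Mmp3, Timp1, Cxcl5 and Il11 are leading genes of the former cluster. Their folds in the joined clusters are therefore a description and not independent support. A change within cells and a change in which cells were present cannot be told apart. In the joined clusters 2210 of 8474 genes were called by edgeR, or 26.1%, with 12% higher and 14.1% lower in expanded skin. At equal depth 579 genes were called.

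Chemokine genes that attract neutrophils and some stromal cytokine genes were higher in expanded skin. All 3 neutrophil-attracting CXC chemokine genes tested rose, while of 3 monocyte-attracting CC chemokine genes 0 rose and 1 fell, Ccl7 (−1.35 ± 0.46). Cxcl2 had 57.0, 103 and 186 CPM in control and 304, 649 and 1604 CPM in expanded mice (log2 fold change 2.92 ± 0.36, adjusted p = 7.98e-05) without overlap, Cxcl1 had a log2 fold change of 1.55 ± 0.35, and Cxcl5 one of 4.47 ± 0.92 that was 7.78 in round 1 and 2.04 in round 2 on the log2(CPM + 1) scale. Of 5 interleukin 1 and interleukin 6 family genes 3 rose. Il11, an interleukin 6 family cytokine of stromal cells, had 1.08, 3.31 and 9.62 CPM in control and 25.8, 109 and 310.3 CPM in expanded mice (log2 fold change 4.32 ± 0.54, adjusted p = 7.98e-05), with every expanded mouse above every control. Il33, an alarm cytokine kept in the nucleus, and Clcf1 rose as well (3.07 ± 0.72 and 1.92 ± 0.45). Ereg, epiregulin, a ligand of the EGF receptor, had 1.17, 10.1 and 42.02 CPM in control and 65.5, 142 and 167 CPM in expanded mice without overlap (log2 fold change 3.22 ± 0.54, adjusted p = 0.000648). Acute phase genes moved both ways, with 4 of 9 higher and 2 lower; Lcn2, lipocalin 2 (5.20 ± 0.93), Saa3 (3.57 ± 0.95) and Slpi, a protease inhibitor (5.03 ± 0.84), were among those that rose.

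Most collagen and elastic fibre genes were lower, and matricellular genes moved both ways. Of 20 collagen and elastic fibre genes 13 fell and 1 rose, with a median log2 fold change of −0.83 beside 0.00 for all genes tested. Col1a1, a chain of collagen I, had 7025, 24595 and 56879 CPM in control and 3674, 4759 and 7359.9 CPM in expanded mice (log2 fold change −2.26 ± 0.34, adjusted p = 0.000272) with overlap, and Col3a1, collagen III, had 8627, 19726 and 29589.5 CPM in control and 4026, 4811 and 6487 CPM in expanded mice (log2 fold change −1.87 ± 0.20, adjusted p = 2.59e-05) without. The 1 that rose was Col12a1, which links fibrils (1.51 ± 0.49). Of 8 small leucine-rich proteoglycans, which space collagen fibrils, 6 fell and 0 rose, and Lum, lumican, had 1878, 2792 and 3686 CPM in control and 614, 1149.9 and 1657 CPM in expanded mice without overlap (log2 fold change −1.31 ± 0.18, adjusted p = 0.000183).

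Tnc, tenascin C, a matrix protein of wounds and stretched tissue, had 24.7, 223 and 705 CPM in control and 1179, 2083 and 2874 CPM in expanded mice (log2 fold change 3.01 ± 0.65, adjusted p = 0.00340), and no expanded mouse reached down to the controls. Of 12 matricellular genes 4 rose, with Spp1 (3.37 ± 0.75), Postn, periostin (1.25 ± 0.27), and Ccn4 (0.84 ± 0.27) beside Tnc, and 3 fell, namely Sparc (−1.65 ± 0.21), Fn1, fibronectin (−1.51 ± 0.40), and Ccn1 (−1.03 ± 0.18). Timp1, an inhibitor of matrix proteases, had 43.5, 176 and 626 CPM in control and 753, 997 and 1348 CPM in expanded mice without overlap (log2 fold change 2.37 ± 0.49, adjusted p = 0.00263), and Mmp3, stromelysin, rose (1.65 ± 0.41). Of 5 hyaluronan genes 3 fell and 0 rose. Has1, a hyaluronan synthase, had 529, 686 and 991 CPM in control and 137, 263 and 327 CPM in expanded mice without overlap (log2 fold change −1.58 ± 0.15, adjusted p = 1.17e-05), and Has2 and Tnfaip6 fell with it (−1.31 ± 0.28 and −1.07 ± 0.23). The highest folds downward were Pcsk6, a proprotein convertase (−4.59 ± 0.47), Gpha2 (−3.74 ± 0.61), Glt8d2 (−3.63 ± 0.50) and Clec3b, tetranectin (−3.47 ± 0.36).

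Genes read as signs of mechanical signalling did not all move 1 way. Of 15 actin cytoskeleton genes linked to the factor SRF 7 rose and 0 fell, among them Actn1, alpha-actinin (1.75 ± 0.28), Tagln, transgelin (1.96 ± 0.69), and Zyx, zyxin (1.05 ± 0.22). Of 12 YAP and TAZ target genes 0 rose and 4 fell: Ccn1 as above, Nt5e (−1.29 ± 0.27), Crim1 (−0.63 ± 0.18) and Fstl1 (−0.60 ± 0.13). Of 14 genes of TGF-beta, activin and BMP signalling 4 rose, with Fst, follistatin (1.99 ± 0.34), and Inhba, an activin chain (1.86 ± 0.40), as the largest, and 2 fell, Bmp2 (−1.17 ± 0.31) and Fstl1 as above.

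**Figure D3:**
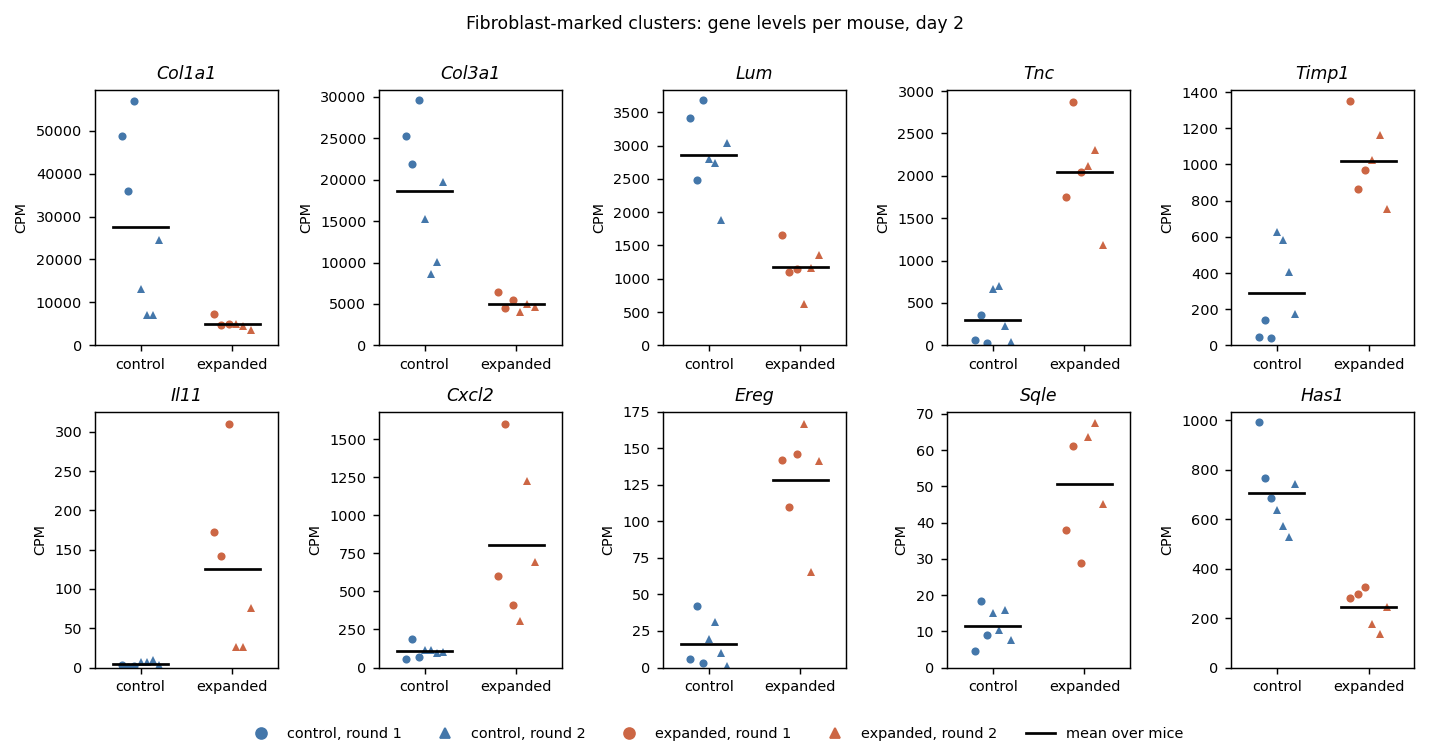
Level of 10 genes in the clusters with fibroblast markers of each hashed mouse, in CPM of the summed clusters on a linear axis, for control and expanded skin; circles are mice of round 1, triangles mice of round 2, and the line is the mean. Tnc, Timp1, Il11, Cxcl2, Ereg and Sqle are higher and Col3a1, Lum and Has1 lower in every expanded mouse than in any control, while Col1a1 overlaps.

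Genes of cholesterol synthesis were higher in these cells of expanded skin. All 12 genes tested rose, with a median log2 fold change of 1.42, and in 11 of them no expanded mouse overlapped the controls, the exception being Insig1. Sqle, which adds oxygen to squalene, had 4.64, 10.5 and 18.3 CPM in control and 28.8, 53.2 and 67.5 CPM in expanded mice (log2 fold change 2.20 ± 0.27, adjusted p = 8.20e-05). Hmgcs1, an early enzyme of the pathway, had 53.9, 66.7 and 76.1 CPM in control and 106, 146 and 189 CPM in expanded mice (log2 fold change 1.14 ± 0.15, adjusted p = 9.99e-05). Idi1 (1.92 ± 0.27), Msmo1 (1.83 ± 0.26), Fdft1 (1.65 ± 0.26) and Cyp51 (1.44 ± 0.22) also rose, and Insig1 had the smallest change of the 12 (0.63 ± 0.19).

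These genes are known targets of the factor SREBP2, which works beside NF-Y, a factor that binds the letters CCAAT. Promoter sequence was therefore read from RefSeq on the mouse build GRCm38.p6, where 10 of the 16 genes of the list had an entry. In the 250 bases before the start, CCAAT on either strand was found in 9 of these 10 genes, against 34.5% of all 27025 promoters, and the SREBP letters TCACNCCAC in 1, Hmgcs1, against 1.04%. A match is a description of these letters and not of binding. The 4 stretches below, taken around the match nearest the start, show the motif of genes that rose, with CCAAT or its reverse complement in capitals; they lie 40, 50, 24 and 9 bases before the start.
Hmgcs1, chr13:119690281-119690335, plus strand: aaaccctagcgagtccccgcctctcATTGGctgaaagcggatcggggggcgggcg
Msmo1, chr8:64733604-64733658, minus strand: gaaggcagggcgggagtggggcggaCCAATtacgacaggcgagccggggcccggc
Cyp51, chr5:4104698-4104751, minus strand: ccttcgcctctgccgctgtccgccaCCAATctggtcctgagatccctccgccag
Idi1, chr13:8885567-8885605, plus strand: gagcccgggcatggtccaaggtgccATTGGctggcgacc

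The named fibroblast class was also compared by library, without the cluster led by Saa3 and Tnc. Of 11641 genes 632 were called, or 5.43%, with 2.41% higher and 3.02% lower. Tnc had 18.4 and 108 CPM in the control and 1575 and 1755 CPM in the expanded libraries (log2 fold change 5.18 ± 0.53, adjusted p = 0.000164), and Ereg had 7.17 and 10.5 CPM in the control and 289 and 595 CPM in the expanded libraries (log2 fold change 5.59 ± 0.34, adjusted p = 5.35e-06). Of 16 cholesterol genes 11 rose and 0 fell, and of 18 cell cycle genes 6 rose. Cfd, complement factor D, had 32.0 and 34.8 CPM in the control libraries and 0 in both expanded libraries, at least 51.2-fold lower with 3 counts over the arm as the floor, and Sult1e1, a sulfotransferase for oestrogen, was at least 47.7-fold lower by the same floor. Gdf10, a BMP family protein, fell as well (−4.46 ± 0.54). The arms drew on the clusters of the class in different shares: cluster 24, led by Mme and Igfbp2 and with Ereg among its leading genes, held 35 of 663 and 85 of 1038 control cells and 80 of 194 and 28 of 59 expanded cells, and cluster 4, with Col1a1 among its leading genes, held 158 and 104 control and 0 and 1 expanded cells. A change within cells and a change in which cells were present cannot be told apart here. Without the round block 360 genes were called and at equal depth 189.

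Blood endothelial cells had lower adhesion genes and higher levels of some genes of vessel growth and of the cell cycle in expanded skin. Of 7578 genes 639 were called, or 8.43%, with 2.9% higher and 5.53% lower. Of 9 leukocyte adhesion genes 5 fell and 0 rose, with a median log2 fold change of −1.41. Selp, P-selectin, on which leukocytes begin to roll, had 1002 and 502 CPM in the control and 275 and 136 CPM in the expanded libraries (log2 fold change −1.87 ± 0.22, adjusted p = 1.31e-07). Sele, E-selectin, had 573 and 400.2 CPM in the control and 237 and 38.2 CPM in the expanded libraries (log2 fold change −2.15 ± 0.30, adjusted p = 2.95e-06), and Ackr1, the chemokine receptor of venules, had 297 and 256 CPM in the control and 116 and 93.1 CPM in the expanded libraries (log2 fold change −1.41 ± 0.25, adjusted p = 0.000188). For these 3 genes both expanded libraries lay below both controls. Vcam1, which binds the integrins of monocytes and lymphocytes, had 81.6 and 41.5 CPM in the control and 6.26 and 42.7 CPM in the expanded libraries with overlap (−1.44 ± 0.44), and Cytl1 had 114 and 65.9 CPM in the controls and 0 in both expanded libraries, at least 44.8-fold lower with 3 counts over the arm as the floor.

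Of 6 chemokine genes tested in endothelial cells 3 fell, Cxcl1, Cxcl2 and Cxcl12, and 0 rose. Cxcl1 was at 671 and 518 CPM in the control and 276 and 33.6 CPM in the expanded libraries (log2 fold change −2.37 ± 0.33, adjusted p = 2.40e-06), and Cxcl2 and Cxcl12 had log2 fold changes of −1.78 ± 0.28 and −1.12 ± 0.24. Of 12 genes of vascular growth and permeability 3 rose and 2 fell. Apln, apelin, a peptide of sprouting tip cells, had 0 and 13.8 CPM in the control and 72.4 and 32.1 CPM in the expanded libraries (log2 fold change 2.38 ± 0.49, adjusted p = 0.00115). Angpt2, angiopoietin 2, which loosens the vessel wall, had 16.3 and 28.4 CPM in the control and 92.1 and 56.5 CPM in the expanded libraries (log2 fold change 1.59 ± 0.34, adjusted p = 0.00148), and Inhbb, an activin chain, had 10.9 and 15.2 CPM in the control and 129.7 and 62.6 CPM in the expanded libraries (log2 fold change 2.63 ± 0.35, adjusted p = 1.25e-06). Of 8 cell cycle genes 3 rose: Mcm2, a replication helicase subunit, had 1.81 and 2.64 CPM in the control and 15.2 and 27.5 CPM in the expanded libraries (log2 fold change 3.23 ± 0.71, adjusted p = 0.00232), beside Mki67 (1.84 ± 0.58) and Tyms (1.13 ± 0.30). Gdf15, a stress-induced hormone, had 329.9 and 264 CPM in the control and 10.7 and 16.8 CPM in the expanded libraries (log2 fold change −4.48 ± 0.33, adjusted p = 6.17e-13). Cldn5, which seals the endothelial junction, fell (−1.01 ± 0.22).

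Of 16 immediate early genes 13 fell in endothelial cells and 0 rose, and of 12 heat shock chaperones 6 fell and 0 rose. The cluster led by Selp, Sele, Ackr1 and Cytl1 held 16 and 31 of the 128 and 255 control cells and 9 and 5 of the 89 and 52 expanded cells. The median endothelial cell held 3630.5 and 5351 UMIs in control and 11477 and 11505 in expanded libraries, and at equal depth 19 genes were called; without the round block the count was 49 and with relative log expression scaling 412.

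**Figure D4:**
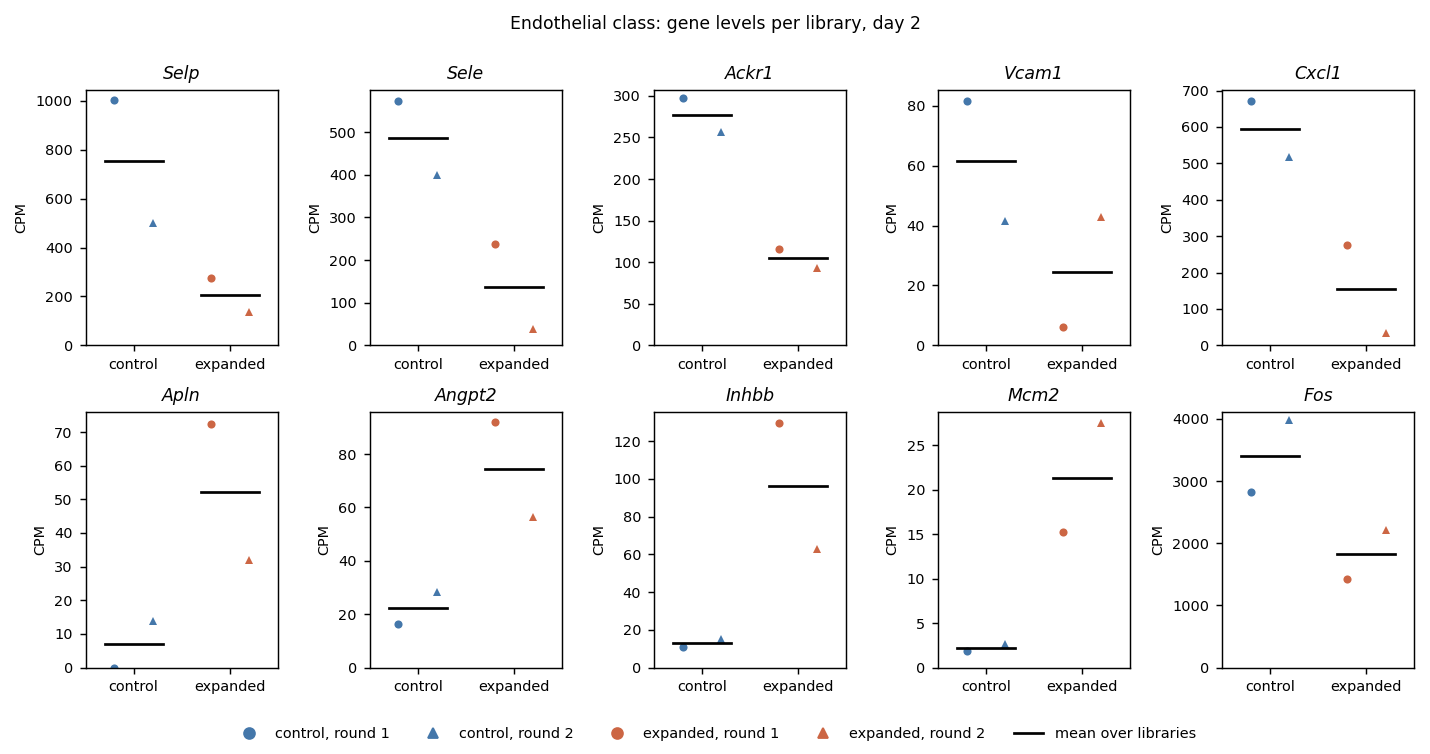
Level of 10 genes in the blood endothelial cells of each of the 4 libraries, in CPM of the summed class on a linear axis; circles are round 1, triangles round 2, and the line is the mean of the 2 libraries. Selp, Sele, Ackr1, Cxcl1 and Fos are lower and Apln, Angpt2, Inhbb and Mcm2 higher in both expanded libraries, and Vcam1 overlaps.

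Lymphatic endothelial cells differed from blood endothelial cells in the sign of Selp. Of 7133 genes 91 were called, or 1.28%, with 0.28% higher and 0.995% lower. Selp had 10.7 and 4.74 CPM in the control and 292 and 40.3 CPM in the expanded libraries (log2 fold change 3.61 ± 0.56, adjusted p = 0.00155), and Ccl2, the chemokine that calls monocytes, had 150.0 and 146 CPM in the control and 1639 and 486 CPM in the expanded libraries (log2 fold change 2.43 ± 0.38, adjusted p = 0.00201). Comp, a matrix protein of cartilage and tendon, had 182 and 85.3 CPM in the control and 1.70 and 8.06 CPM in the expanded libraries (log2 fold change −4.34 ± 0.58, adjusted p = 0.000292), and Edn1, endothelin 1, fell (−2.85 ± 0.58). Of 16 immediate early genes 8 fell and of 12 heat shock chaperones 4 fell, with 0 higher in either list. The difference in Selp between the 2 vessel classes was not tested. Without the round block 35 genes were called, and at equal depth 15.

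Pericytes, the contractile cells around small vessels, had higher Csf3, Cxcl5, Il11 and Lcn2 and lower Pln and Rergl in expanded skin. Of 3 acute phase genes 3 rose, of 4 neutrophil-attracting CXC chemokine genes 2 rose, and of 4 interleukin 1 and interleukin 6 family genes 1 rose, with 0 lower in each list. Of 7064 genes 303 were called, or 4.29%, with 1.29% higher and 3% lower. Csf3, the growth factor for neutrophils, had 0 and 1.09 CPM in the control and 85.9 and 32.9 CPM in the expanded libraries; the control value rests on 1 count, and the ratio of the arms was 76.6 with an interval of 13.4 to 3058 that covers counting error only. Cxcl5 had 0 and 1.09 CPM in the control and 120.5 and 16.5 CPM in the expanded libraries, on 1 control count as well, with a ratio of 89.2 and an interval of 15.7 to 3556. Lcn2 was at 0 in both controls and at 28.2 and 87.8 CPM in the expanded libraries. Il11 (2.80 ± 0.53), Tnc (1.87 ± 0.23), Timp1 (2.10 ± 0.31) and the cholesterol gene Fdps (2.20 ± 0.27) rose.

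Pln, phospholamban, which controls calcium uptake in muscle cells, had 384 and 155 CPM in the control and 1.28 and 21.9 CPM in the expanded libraries (log2 fold change −4.40 ± 0.69, adjusted p = 0.0194). Rergl fell with it (−3.71 ± 0.41). In contrast to the clusters with fibroblast markers, 3 collagen genes rose in pericytes, Col6a1 (0.97 ± 0.21), Col6a2 (1.24 ± 0.24) and Col6a3 (1.22 ± 0.21); the difference between the classes was not tested. Without the round block 193 genes were called, and with relative log expression scaling 584.

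Dermal papilla cells had higher acute phase genes and lower collagen genes in expanded skin. Of 7404 genes 115 were called, or 1.55%, with 1.07% higher and 0.486% lower. Of 6 acute phase genes 4 rose and 0 fell. Saa3 had 7.94 and 36.98 CPM in the control and 644 and 1816 CPM in the expanded libraries (log2 fold change 5.68 ± 0.44, adjusted p = 7.25e-11). Cemip, a protein that breaks down hyaluronan, had 0 and 3.25 CPM in the control and 218 and 72.9 CPM in the expanded libraries (log2 fold change 4.73 ± 0.51, adjusted p = 1.37e-07). Mmp3 (3.06 ± 0.35), Thbs2 (2.53 ± 0.36), Tnc (1.59 ± 0.35) and Cxcl14, a chemokine of resting skin (3.43 ± 0.40), also rose. Of 17 collagen and elastic fibre genes 5 fell, among them Col1a1 (−3.28 ± 0.47), and 1 rose, and Clec3b, Lum and Aspn were lower (−4.69 ± 0.56, −2.62 ± 0.35 and −2.64 ± 0.33). The summed fibroblast transcripts of the class, Col1a1 among them, were 15052 CPM in control and 3015 CPM in expanded libraries, and the part of free RNA in these falls was not tested. The control library of round 1 held 21 cells of the class, and without the round block 65 genes were called.

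In the class named basal keratinocytes, an antimicrobial gene and cholesterol genes were higher in expanded skin. Cluster 5 of the class, led by Krt24 and Krt15, had Lhx2, a marker of hair follicle keratinocytes, among its leading genes. It held 13 of 40 and 145 of 270 control cells and 46 of 112 and 59 of 93 expanded cells. The part of this makeup in the calls was not tested. Of 9430 genes 61 were called, or 0.647%, with 0.297% higher and 0.35% lower. Lcn2, an antimicrobial protein that binds bacterial iron carriers, had 3.13 and 6.85 CPM in the control and 106 and 92.6 CPM in the expanded libraries (log2 fold change 3.92 ± 0.36, adjusted p = 3.99e-06). Idi1, an enzyme of the cholesterol pathway, had 46.9 and 63.7 CPM in the control and 183 and 199 CPM in the expanded libraries (log2 fold change 1.75 ± 0.27, adjusted p = 0.00123), and 4 of 16 genes of that list rose, with Fdps (1.74 ± 0.30), Cyp51 (1.37 ± 0.29) and Msmo1 (1.24 ± 0.29). Of 8 wound-induced epidermal genes 3 rose: Stfa3 (1.42 ± 0.26), S100a8 and S100a9. S100a8 had 0 and 0.343 CPM in the control and 187 and 7.67 CPM in the expanded libraries, and S100a9 had 0 and 1.03 CPM in the control and 235 and 8.85 CPM in the expanded libraries, so most of both came from the expanded library of round 1. These 2 genes were highest in neutrophils, and the summed neutrophil transcripts of the class were 1.03 CPM in control and 222 CPM in expanded libraries; their part was not tested. Edn1 fell (−2.61 ± 0.36). Without the round block 1 gene was called and at equal depth 26.

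Melanocytes, the pigment cells, had 56 of 4266 genes called, or 1.31%, with 0.68% higher and 0.633% lower. Fn1, fibronectin, had 99.1 and 91.1 CPM in the control and 499.6 and 699 CPM in the expanded libraries (log2 fold change 2.75 ± 0.33, adjusted p = 1.23e-13), with both expanded libraries above both controls, and Ifit3, an interferon-induced gene, also rose (3.16 ± 0.50). Schwann cells, which ensheath nerves, had 1 of 5627 genes called, or 0.0178%, and it was lower in expanded skin (0.0178%). In an unnamed cluster with fibroblast markers led by Cck and Fmod, 81 of 8611 genes were called, or 0.941%, with 0.523% higher and 0.418% lower. Dio2, an enzyme that activates thyroid hormone, rose in it (3.55 ± 0.42), and Bdnf, a neurotrophin, and Timp3, a protease inhibitor, fell (−2.45 ± 0.51 and −2.13 ± 0.21). Without the round block 26, 0 and 0 genes were called in these 3 populations.

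Across classes some lists had the same sign in most of them and others did not. Cholesterol genes rose and did not fall in clusters with fibroblast markers (12 of 12), the named fibroblasts (11 of 16), macrophages (5 of 11), basal keratinocytes (4 of 16), dendritic cells (2 of 14) and pericytes (2 of 10). The shares of all genes higher in those classes were, in the same order, 12%, 2.41%, 13.8%, 0.297%, 1.59% and 1.29%. In blood endothelial, lymphatic endothelial and dermal papilla cells none of 6, 9 and 11 genes passed in either direction. Immediate early genes fell in macrophages (9 of 17), endothelial (13 of 16), lymphatic endothelial (8 of 16), pericytes (7 of 17) and dendritic cells (3 of 17). Of all genes, 14.1%, 5.53%, 0.995%, 3% and 2.61% were lower in these classes. Basal keratinocytes and named fibroblasts each had only 1 of 17 lower, beside 0.35% and 3.02% of all genes. Clusters with fibroblast markers had 3 lower and 1 higher of 17, near the 14.1% and 12% of all genes. None of the immediate early genes passed in T cells (of 14), NK or innate lymphoid cells (of 14), dermal papilla cells (of 17) or Schwann cells (of 16), and in Schwann cells their median log2 fold change was 0.35. Collagens and elastic fibre genes had 13 of 20 lower in the joined fibroblast clusters, 5 of 20 lower and 2 higher in the named fibroblasts, and 0 lower and 3 of 14 higher in pericytes. They also had 7 of 12 lower in endothelial cells, where summed fibroblast transcripts were 4520 CPM in control and 3675 CPM in expanded libraries. The shares of all genes lower in the joined clusters, named fibroblasts, pericytes and endothelial cells were 14.1%, 3.02%, 3% and 5.53%. Those higher in named fibroblasts and pericytes were 2.41% and 1.29%. A shared direction across classes is a count of tests and not a test of sharing, since all classes come from the same 4 libraries.

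**Figure D5:**
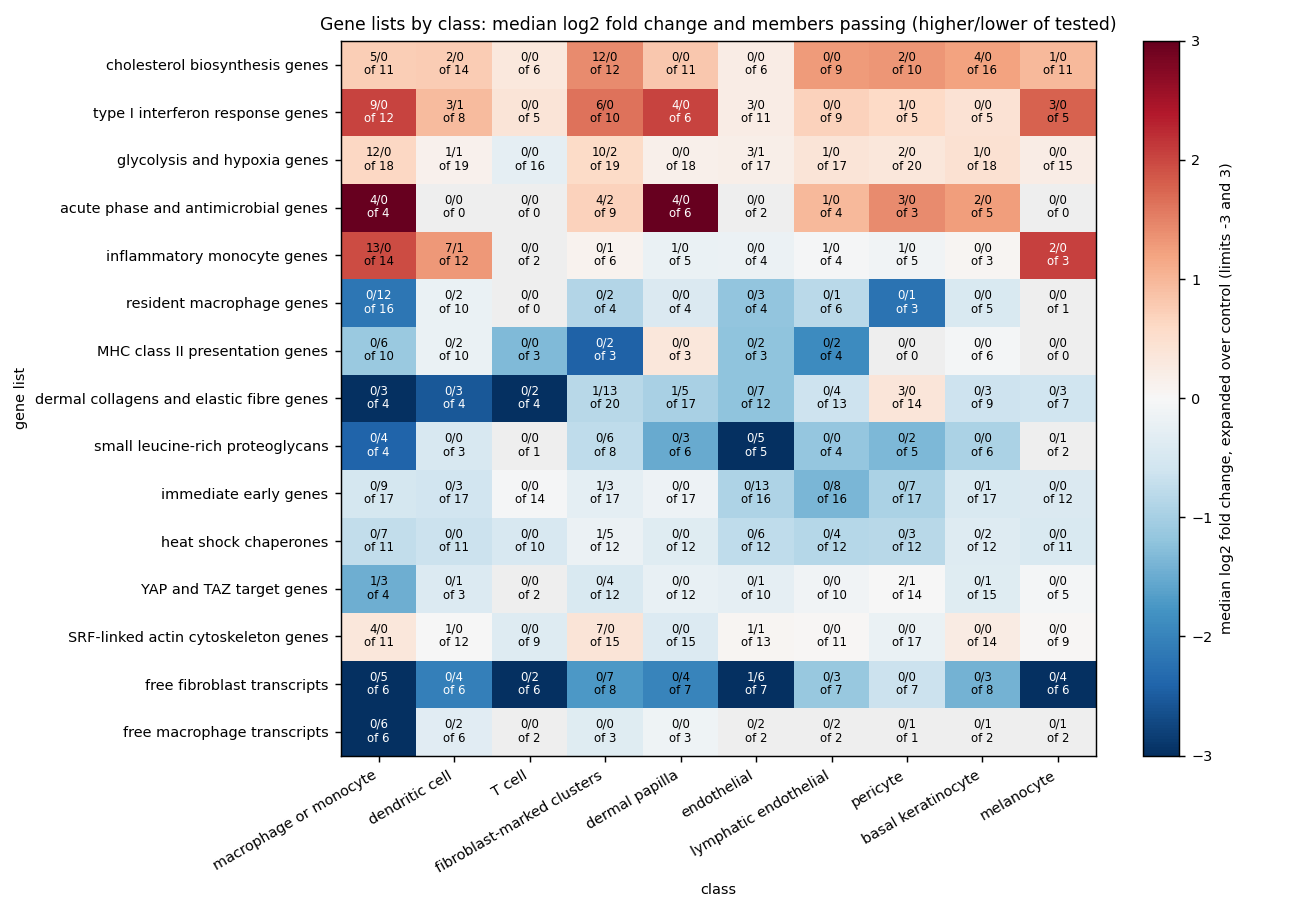
Median log2 fold change, expanded over control, of 15 gene lists (rows) in 10 classes (columns); red is higher and blue lower in expanded skin, limits −3 to 3, and the text in each cell is the number of genes higher and lower of those tested. Cells with fewer than 3 genes tested are grey; cholesterol genes have 12 of 12 higher in the clusters with fibroblast markers, and resident macrophage genes 12 of 16 lower in macrophages.

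The size of the effect was also compared between rounds and with other days, by a test of the difference itself. In macrophages the effect of expansion differed between rounds 1 and 2 for 340 of 7828 genes, or 4.34%, in clusters with fibroblast markers for 55 of 8474, or 0.649%, and in T cells for 0 of 4456 by edgeR, where 174 had an unadjusted p under 0.05. Among the macrophage genes were the lectins Cd209g (difference of log2 fold changes 9.50 ± 1.59), Cd209f (9.20 ± 1.20) and Cd209b (5.34 ± 1.01), for which the fall was deeper in round 1. Against day 4 the effect on day 2 differed for 4 of 7817 macrophage genes, or 0.0512%, including S100a9 and Il15, and for 1 of 8628 genes of the fibroblast clusters, or 0.0116%. Against day 1 it differed for 0 of 7565 macrophage genes and 0 of 8287 fibroblast genes, where 479 and 596 had an unadjusted p under 0.05. A difference that did not pass does not show that the days acted alike.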

How the data were processed

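The authors deposited unnormalized UMI counts per gene and cell barcode, with the hashtag counts as rows of the same matrices; Cell Ranger 6.1.2 and the mouse build mm10 are named in the submitters' processing notes. Barcodes needed 200 genes, 500 UMIs and no more than 10% of mitochondrial UMIs to be kept as cells. Hashtags were assigned with Seurat 5.3.0 (HTODemux, quantile 0.99), and doublets by hashtag or by scrublet were removed. Cells of all days were clustered with scanpy 1.11.5 and leidenalg 0.10.2 (2000 variable genes, 30 components, 15 neighbours, resolution 2, chosen after seeing the clusters), giving 54 clusters of which 40 were named from marker lists. Shares were compared per mouse by an exact permutation test within rounds. Counts of each class were summed per mouse, or per library where mice had under 20 cells, and tested with edgeR 4.0.16 (quasi-likelihood, TMM scaling, round as block, Benjamini-Hochberg adjustment over all genes tested in the class). The members of the lists and the lists themselves were chosen with earlier results of these data known.

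Genes were named if they belonged to a list, or as up to 4 per direction with an adjusted p under 0.05, a mean of at least 20 CPM in the higher arm, the same sign in both rounds and a level of at least 0.1 of that of the highest class; predicted genes, mitochondrial genes and genes that mark sex were left out, and a few further genes are not reported here. Hashed mice of a round share a number and a reaction but not an animal across arms, so no mice were paired; the round is the only pairing, taken from the labels. DESeq2 1.42.0, relative log expression scaling, no filter, thinning of cells to equal depth, a second hashtag rule and leaving out each mouse or round were tried as alternatives. The differential tests were run on simulated counts, drawn without an effect of round or reaction. Changes of 2-fold were recovered in 73%, 67% and 46% of cases in macrophages, joined fibroblast clusters and T cells, by mouse. By library 23%, 37% and 1% were recovered in dendritic cells, endothelial cells and basal keratinocytes. Changes of 4-fold were recovered in 62% (basal keratinocytes) to 96% (joined fibroblast clusters). The intervals, and the floor of 3 counts, take in only the error of counting, and barcodes shared between pairs of libraries numbered 1 to 5.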

Additional observations from a re-analysis of the deposited data

Results flagged for a closer look

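In 6 cases a value stood far from the rest of its arm. In expanded mice 1 mouse had 7.82% dendritic cells where the median was 3.23%, 1 had 23.5% fibroblasts where the median was 10.1%, and 1 had 0.671% smooth muscle cells where the median was 0%. In the clusters with fibroblast markers, Traf3ip3 was at 7.43 CPM in 1 control mouse (median 0.575 CPM), Cxcl5 at 1.10 CPM in 1 expanded mouse (median 89.5 CPM) and Clec3b at 5.29 CPM in 1 expanded mouse (median 56.4 CPM). These were 6 of 72 groups examined, and chance alone gives about 1 in 20.

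The effect of expansion differed between the rounds for 340 genes in macrophages and for 55 in clusters with fibroblast markers, and between day 2 and day 4 for 4 and 1 genes. In macrophages the difference of log2 fold changes between rounds was 9.50 for Cd209g, 9.20 for Cd209f and 5.34 for Cd209b. Ribosomal protein genes such as Rps29 and Rpl29 were also among the 340.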

How the results depend on the processing

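The number of class shares that passed, of 18 tested, was 7 in the main setting and 4 without the replicate block (round). It was 0 with 1 round alone, where 3 or 4 mice a side cannot go below p = 0.1 or 0.0286 in the exact permutation test. With 1 mouse or round left out it lay between 0 and 9. Without the replicate block the counts were NK or innate lymphoid 3 (from 6), dendritic 2 (338), Schwann 0 (1), basal keratinocyte 1 (61), dermal papilla 65 (115), endothelial 49 (639), fibroblast 360 (632), lymphatic 35 (91), melanocyte 26 (56), pericyte 193 (303), Il17a/Il17f cluster 1 (19) and Cck/Fmod cluster 0 (81). With cells thinned to equal depth they were macrophage 877, joined fibroblast clusters 579, dendritic 143, Schwann 0, basal keratinocyte 26, endothelial 19, fibroblast 189, lymphatic 15, Il17a/Il17f 1 and Cck/Fmod 42. With relative log expression scaling they were NK 0, Schwann 19, endothelial 412, lymphatic 60 and pericyte 584. Without a filter they were T cell 261, NK 46, Schwann 54, basal keratinocyte 126, fibroblast 1020, pericyte 662, Il17a/Il17f 37 and Cck/Fmod 218. Library sums with replicate block gave T cell 80, macrophage 540 and joined fibroblast clusters 984, and DESeq2 gave T cell 54. Leaving out mice or rounds gave T cell 0 to 65, macrophage 740 to 2237 and joined fibroblast clusters 554 to 2222.

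Differences between rounds came to 14 (T cell), 759 (macrophage) and 351 (joined fibroblast) without a filter and 142 and 13 for the latter 2 at equal depth. Day 2 against day 4 gave 50, 15 and 11 without a filter and 0 for the fibroblast clusters at equal depth; day 2 against day 1 gave 71, 185 and 39, and 1 for the fibroblast clusters with relative log expression scaling. None of the shares that passed changed sign. Among the others, over all assigned cells the difference was 0.624 for T cells, −0.202 for basal and −0.0115 for suprabasal keratinocytes. With 1 mouse or round left out it ran from −5.61 to 2.15 for T cells, −1.41 to 17.0 for macrophages, −0.0473 to 5.79 for sebaceous cells, −1.03 to 4.998 for Schwann cells, −0.569 to 6.65 for melanocytes and −0.219 to 0.0904 for skeletal muscle, in percentage points. Library shares gave 1.17 for T cells and −0.196 for pericytes of all cells. The cause of these changes was not tested. No named gene reversed under the alternatives run; thinned fits were not run for NK, dermal papilla and melanocyte classes, nor the minimum of 50 cells for T cells and joined fibroblast clusters. In classes with few cells or compared over 4 libraries, a gene that was not called cannot be said to be unchanged.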

Other observations

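Clusters that stayed unnamed are given as values with no test. The cluster led by Cck and Fmod took 7.36% ± 3.51 of non-immune cells in controls and 6.68% ± 3.31 after expansion (SD, n = 7 and 7). The cluster led by Cxcl9 and Ifit1 took 1.37% ± 1.16 and 2.87% ± 4.25, and the cluster led by Cilp and Slit2 4.90% ± 2.98 and 1.63% ± 1.21. A cluster led by the haemoglobin gene Hbb-bs and by Cpz held 89 and 177 cells in the control libraries of rounds 1 and 2 and 41 and 79 in the expanded libraries.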
